A study of Mus musculus with 8 samples.

Results

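Lens fibers of E14.5 mouse embryos (E counts embryonic days) had 54305 stretches of open chromatin that were called in no other group of this series. These E14.5 fiber-only regions were selected on measured peak calls: the 4 peak lists were merged at 10 bp on the autosomes and the X chromosome, and a merged region was kept when it held a peak of the E14.5 fiber list and no peak of the other 3 lists. They made up 29.3% of all 185247 merged regions and 44.3% of the 122491 regions with an E14.5 fiber peak. ATAC-seq, in which a transposase cuts accessible DNA and tags it for sequencing, was applied to epithelium and fibers dissected from the lenses of CD1 mice. Each tissue was taken at E14.5 and again just after birth, at P0.5 (P counts postnatal days), which makes 4 groups of 2 libraries, and no group is labelled with a treatment or an engineered allele. The deposited peak lists pool the 2 libraries of a group. Values therefore carry no replicate error, no test across replicates was possible, and the 95% intervals given cover counting error only. In bulk tissue, a site that is open in more cells and a site that is more open per cell cannot be told apart.

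The lens grows from a single layer of epithelial cells whose daughters leave the cell cycle, elongate and become fibers. Fibers fill with crystallins, build a membrane skeleton of spectrin, ankyrin and beaded filaments, couple through gap junctions, and later lose their nuclei and organelles. Transcription factors of the large Maf family, above all c-Maf, together with Sox1, Prox1, Pax6 and Hsf4, are known activators of fiber genes. Open chromatin away from promoters often marks enhancers, where such factors bind short sequence words.

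Fiber marker genes were widely covered in the E14.5 fiber list. That list was also larger than the E14.5 epithelium list, with 122491 against 91456 regions. The share of all genes that were more covered in it was not computed, so these counts do not by themselves identify the tissue. Of 12 fiber marker genes (among them Cryaa, Crybb1, Mip and Bfsp1), 11 had a larger part of the gene covered by peaks in E14.5 fibers than in E14.5 epithelium, and the median coverage was 71.1% against 10.8%. Of 6 epithelium markers, 5 were also more covered in E14.5 fibers (median 52.5% against 36.2%), and the exception was Cdh1, with 5.99% against 9.28%. Of 14 blood and vessel genes, 6 held no peak base in E14.5 fibers and the highest coverage was 3.28%. Of 12 retina and neuron genes, 8 were more covered in E14.5 fibers than in the epithelium of that stage (median 5.37% against 2.64%, highest 72.1%), and of 12 mesenchyme genes 5 were (median 2.36% against 2.09%, highest 63.6%). In the body or the 2 kb upstream, 4 of the 14 blood and vessel genes (28.6%), 3 of the 12 retina and neuron genes and 4 of the 12 mesenchyme genes (33.3%) held a fiber-only region, against 46.5% of all protein-coding genes. The part of other cells in the fiber-only regions was not tested.

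The sequences below are 200 bases centred on the peak summit, on the forward strand of GRCm38 (mm10), which RefSeq supplied. They show the words that the later results turn on, first in 4 of the 20 strongest fiber-only regions and then at 4 genes of fiber membrane, cytoskeleton or organelle loss, where the strongest region with at least 2 kinds of word is shown, which need not be the strongest in the gene. All were taken from 69 fiber-only regions, outside untranslated exons, that were among the 20 strongest or lay at a listed gene and held at least 2 of 5 kinds of word. Capitals mark every match, on either strand, to the Maf half-site TGCTGA, to the Sox word CATTGT, to the AP-1 word TGANTCA, to the Hsf word TTCNNGAA or to the Pax6 core TTCACGC. A Maf and an AP-1 match can share letters.
Prkca intron, chr11:108162182-108162381: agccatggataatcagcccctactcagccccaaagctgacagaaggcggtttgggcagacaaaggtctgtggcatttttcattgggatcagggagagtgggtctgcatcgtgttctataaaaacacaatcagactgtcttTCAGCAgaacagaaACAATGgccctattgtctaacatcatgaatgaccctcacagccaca
Uhrf2 intron, chr19:30091715-30091914: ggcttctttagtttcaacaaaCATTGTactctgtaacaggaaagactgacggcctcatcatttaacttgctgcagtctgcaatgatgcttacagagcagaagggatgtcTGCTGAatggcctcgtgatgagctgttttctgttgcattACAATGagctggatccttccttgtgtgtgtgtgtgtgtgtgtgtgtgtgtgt
Intergenic, nearest start that of Sox1ot, chr8:12202510-12202709: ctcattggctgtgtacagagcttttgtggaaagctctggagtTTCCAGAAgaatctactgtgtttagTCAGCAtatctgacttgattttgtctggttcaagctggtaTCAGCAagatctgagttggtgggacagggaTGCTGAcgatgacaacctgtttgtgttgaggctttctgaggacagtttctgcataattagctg
Outside genes, nearest start that of Galnt2, chr8:124221798-124221997: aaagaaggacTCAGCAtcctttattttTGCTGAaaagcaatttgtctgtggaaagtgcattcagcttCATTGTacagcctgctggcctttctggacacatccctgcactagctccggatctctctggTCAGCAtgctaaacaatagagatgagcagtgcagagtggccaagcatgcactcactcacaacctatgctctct
Cadm1 intron, chr9:47665661-47665860: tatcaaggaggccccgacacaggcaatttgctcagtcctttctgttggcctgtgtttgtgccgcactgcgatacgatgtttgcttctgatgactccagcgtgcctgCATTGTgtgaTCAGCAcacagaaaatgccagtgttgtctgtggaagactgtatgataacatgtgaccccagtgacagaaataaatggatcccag
Plaat3 intron, chr19:7582302-7582501: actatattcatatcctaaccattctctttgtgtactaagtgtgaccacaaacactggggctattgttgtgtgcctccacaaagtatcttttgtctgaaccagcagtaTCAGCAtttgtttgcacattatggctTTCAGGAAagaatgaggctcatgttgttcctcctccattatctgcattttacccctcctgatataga
Ank2 intron, chr3:127342719-127342918: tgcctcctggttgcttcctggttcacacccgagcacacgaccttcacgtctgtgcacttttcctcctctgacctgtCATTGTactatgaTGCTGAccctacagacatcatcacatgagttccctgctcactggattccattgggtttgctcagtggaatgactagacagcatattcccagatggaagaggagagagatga
Bfsp2 intron, chr9:103450099-103450298: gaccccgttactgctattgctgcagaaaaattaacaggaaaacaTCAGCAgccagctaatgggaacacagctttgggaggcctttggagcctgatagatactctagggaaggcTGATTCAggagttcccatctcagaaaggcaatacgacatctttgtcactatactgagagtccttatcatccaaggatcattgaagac
The regions in Prkca (protein kinase C alpha) and Uhrf2 (a ubiquitin ligase) had 102 and 97 fragments at the summit. The regions near Sox1ot and Galnt2 both had 92 fragments and held 3 Maf half-sites each, 183161 bp and 9496 bp from the nearest transcription start. The region in Cadm1, a cell adhesion gene, had 64 fragments. Those in Plaat3 (a phospholipase needed for organelle breakdown in the lens), Ank2 and Bfsp2 had 35, 33 and 26.

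Most fiber-only regions were weak and narrow. The deposited fold enrichment moves in whole steps, so the number of fragments piled up at each summit could be read from it: all values (100%) lay within 0.01 of a whole number of fragments in each list. The weakest fiber-only regions had 8 fragments at the summit, the fewest that any E14.5 fiber peak had, and 2427 stood at that edge. The median was 12 fragments (5% below 9, 5% above 25, highest 158), a fold enrichment of 3.86, against 24 fragments and 7.41 in the other 68186 regions with an E14.5 fiber peak. The median width was 211 bp (quartiles 159 and 308) against 522 bp. Although they were 44.3% of the regions, they covered 14.4 Mb of the 65.3 Mb in all regions with an E14.5 fiber peak. When the E14.5 fiber regions were ordered by p value, the share called in no other list fell from 81.8% in the weakest of 10 equal classes to 0.286% in the strongest.

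**Figure D1:**
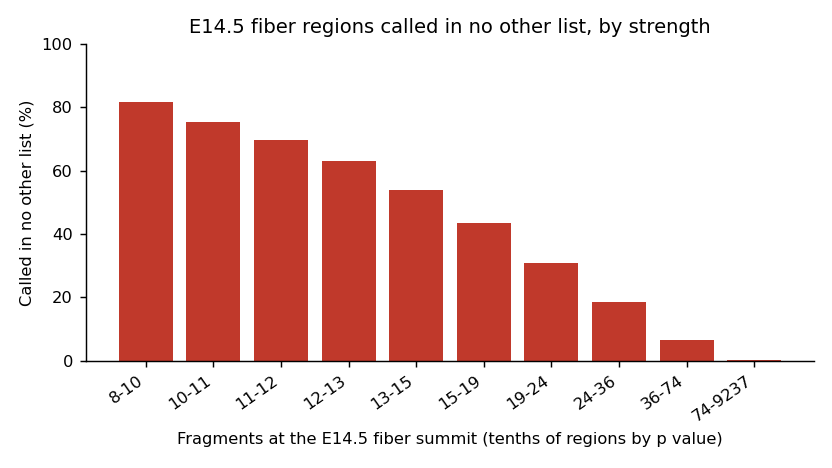
Share of the 122491 regions with an E14.5 fiber peak that no other list called (y axis, %), in 10 equal classes ordered by p value, with the range of fragments at the summit under each bar. The bars fall from 81.8% to 0.286%.

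The lists differed in how weak a signal they could hold. The background, in fragments covering a base, was 2.37 in E14.5 fibers, 1.61 in the epithelium of the same stage, and 1.36 and 1.16 in epithelium and fibers at P0.5. The fewest fragments in a called peak were 7, 7 and 6 in those other lists, so that up to 6, 6 and 5 fragments, or 3.73, 4.43 and 4.32 times the background, could go uncalled. Of the fiber-only regions, 35623 (65.6%) had at least 11 fragments and so exceeded the highest of these multiples. For 4600 (8.47%) the summit stood at 22 fragments or more, over 2 times that multiple, and these are called strong below. The remaining regions could go uncalled in another list even at the same multiple of background. For all fiber-only regions, strong ones included, closed chromatin and open chromatin below the limit of another list cannot be told apart.

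At the edge of the rule, the closest fiber-only region lay 11 bp from a peak of another list, and 231 lay within 20 bp. On the other side, 264 E14.5 fiber peaks that overlapped no other list were left out because they came within 10 bp of one. The median gap to the nearest peak of another list was 1961 bp. For 18990 regions (34.97%) it was at most 1000 bp, and for 9034 (16.6%) it was over 10 kb.

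Fiber-only regions were mainly intronic. Of all 54305, 65.4% (95% Wilson interval 65.0 to 65.8%) lay in gene bodies, 19.2% were distal (within 50 kb of a gene), 9.64% were at promoters (within 2 kb of a transcription start) and 5.76% were intergenic. Gene bodies beyond promoters make up 38.1% of the genome and promoters 4.06%. In the other E14.5 fiber regions, gene bodies held 45.6% and promoters 28.3%. The difference was 19.8 percentage points for gene bodies (Newcombe 95% interval 19.3 to 20.4) and -18.6 for promoters (-19.05 to -18.2). Part of it went with strength: standardised over deciles of the p value, the differences were 8.09 points (7.36 to 8.83) and -4.72 points (-5.22 to -4.22), still on the same side of 0. Regions shared by both E14.5 tissues and no other list had 56.7% in gene bodies, and regions shared by fibers at both stages and no other list had 67.4%.

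**Figure D2:**
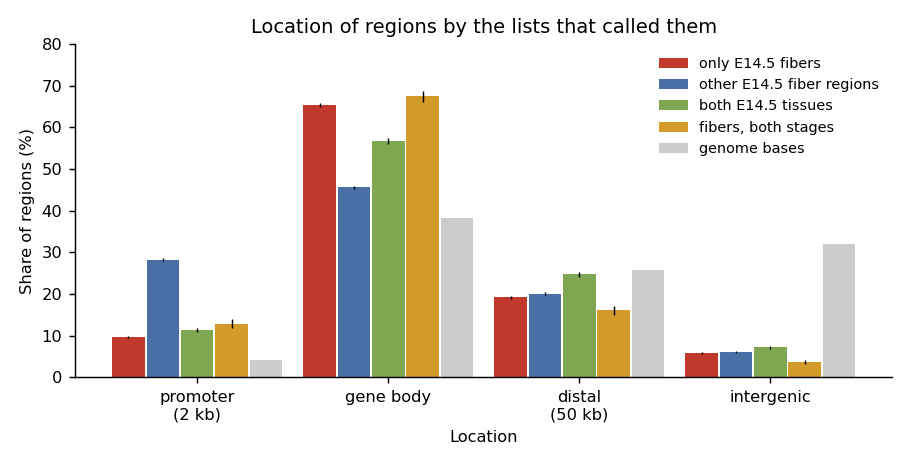
Share of regions (y axis, %) in each location for fiber-only regions, other E14.5 fiber regions, regions of both E14.5 tissues and regions of fibers at both stages, with 95% Wilson intervals, beside the share of genome bases. Fiber-only regions had 65.4% in gene bodies and 9.64% at promoters, against 45.6% and 28.3% of the other E14.5 fiber regions.

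Of 39292 fiber-only summits inside a transcribed span, 35133 were in introns and 4159 (10.6%) in exons. The exon share was 24.7% among other E14.5 fiber regions and 11.8% among regions of both E14.5 tissues. The median distance to the nearest transcription start was 22.1 kb (quartiles 7.21 and 54.0 kb), against 12.1 kb for the other E14.5 fiber regions. Regions of both E14.5 tissues had a median of 21.3 kb. Along 9481 genes of at least 20 kb, when each gene was cut into 10 equal parts, the first part held 10.9% of the fiber-only summits and the last 12.5%. The other E14.5 fiber regions were instead crowded at the start, with 19.5% in the first part and 11.4% in the last.

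The DNA under the summits also differed in make-up from that of the other E14.5 fiber regions, while regions of both E14.5 tissues were closer. The median GC content of 200 bp was 51.0% in fiber-only regions and 55.0% in the other E14.5 fiber regions, and the mean number of CpG was 3.003 against 7.31. Regions of both E14.5 tissues had 51.5% and 3.69. In strong fiber-only regions these values were 49.5% and 2.93, and their flanks 400 to 600 bp from the summit had a median GC content of 44.0%. Over all fiber-only regions, repeat-masked bases made up 10.6% of the windows on average, against 6.98% in the other E14.5 fiber regions. More than 50% repeat was found in 3.94% of the windows, against 1.26%. In regions of both E14.5 tissues these shares were 8.93% and 2.40%.

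Of the 18 words searched, the one with the highest ratio of summit to flank in strong fiber-only regions was the Maf half-site, the core of the sequence that c-Maf and its relatives bind. Among strong fiber-only regions, 2020 of 4600 (43.9%, 95% interval 42.5 to 45.4%) held TGCTGA within 200 bp at the summit. In windows of the same length 400 to 600 bp away, the share was 15.3%. Strong regions of the other kind held it in 22.6%, a difference of 21.4 points (19.9 to 22.9). That difference was 15.6 points (14.0 to 17.2) outside promoters, 16.5 points (14.9 to 18.03) after standardising over GC content and 17.7 points (16.1 to 19.3) after standardising over fragments at the summit. More than 1 half-site was present in 10.8% of the strong fiber-only regions and in 3.75% of the strong others.

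The share with a Maf half-site went up with the strength of the region. It was 21.2% in fiber-only regions with 8 or 9 fragments, 23.0% with 10 to 12, 28.7% with 13 to 16, 36.8% with 17 to 25, 44.1% with 26 to 40 and 57.6% (53.5 to 61.7%) in the 557 regions with 41 or more. The flanks stayed between 14.8% and 15.9% in all of these classes. The other E14.5 fiber regions lay between 21.5% and 26.2% in the first 5 classes. Their 19.9% in the class of 41 or more is not matched in strength, since it reached 9237 fragments and the fiber-only class 158. The first 2 classes of fiber-only regions, with up to 12 fragments, were within 1 point of the other regions of their strength. Over all 54305 fiber-only regions the share was therefore only 27.0%, against 23.1% of the others, a difference of 3.92 points (3.43 to 4.41) that was 0.766 points (0.221 to 1.31) after standardising over GC content and 1.003 points (0.446 to 1.56) outside promoters.

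**Figure D3:**
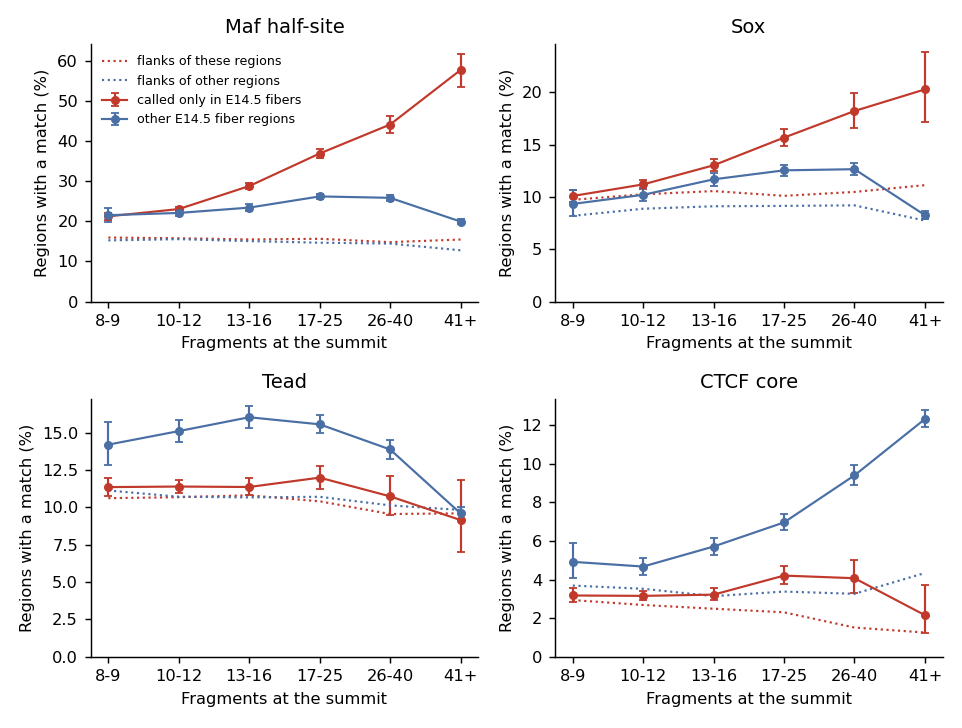
Share of regions with a match to each word in 200 bp at the summit (y axis, %; red, fiber-only regions; blue, other E14.5 fiber regions; bars, 95% Wilson intervals; dotted, flanks 400 to 600 bp away) by fragments at the summit. The Maf share of fiber-only regions rises from 21.2% to 57.6% while their flanks stay near 15%.

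The half-sites sat at the summit. Strong fiber-only regions had 203 and 207 half-sites per 1000 regions in the 50 bp before and after the summit, and between 33.7 and 48.7 in each 50 bp beyond 150 bp from it. In strong regions of the other kind the 2 central bins had 82.4 and 85.5. In the 20 strongest fiber-only regions, 14 held at least 1 half-site and 7 held more than 1.

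**Figure D4:**
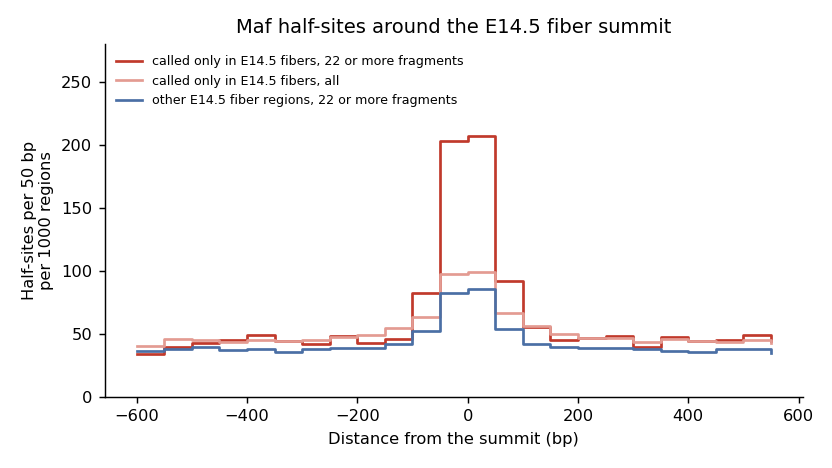
Maf half-sites per 50 bp and 1000 regions (y axis) by distance from the summit (x axis, bp). Strong fiber-only regions reach 207 beside the summit, all fiber-only regions 99.3 and strong other E14.5 fiber regions 85.5.

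The Maf word was not particular to the E14.5 stage of fibers. Strong regions called in fibers at both stages and in neither epithelium held it in 52.9% (49.1 to 56.6%) of 666, so that the strong fiber-only regions differed from them by -8.94 points (-12.97 to -4.88). Strong regions of both E14.5 tissues held it in 30.3% of 7375, 13.6 points (11.8 to 15.4) below. Without a limit on strength the gaps were smaller, and the shares were 27.0% in fiber-only regions, 26.5% in regions of both E14.5 tissues and 29.1% in regions of fibers at both stages.

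All words of 6 bases were also counted, with no motif chosen. Of 1791 words present in at least 2% of strong fiber-only regions, GCTGAC had the highest ratio of summit to flank (31.9% against 8.96%, 3.57 times) and TGCTGA was second (43.9% against 15.3%, 2.87 times). The words overlap by 5 letters and can count the same site. Over all fiber-only regions GCTGAC was again first (19.3% against 9.88%, 1.95 times), but TGCTGA ranked 7 (1.72 times), behind words with a CpG such as AGCGGC and CGCTGC (1.83 times each). In strong regions of the other kind the leading word was CGCGCG, at 9.65% against 2.34%.

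Among strong regions the other lens words moved less. The Sox word CATTGT was in 17.8% of strong fiber-only regions, 10.4% of their flanks and 10.2% of the strong others, a difference of 7.58 points (6.46 to 8.76) that fell to 1.22 points (-0.0136 to 2.46) after standardising over GC content. It rose with strength from 10.1% to 20.3%. Sox matches were about as frequent in strong fiber-only regions with a Maf half-site as without one (17.9% and 17.6%). The AP-1 word was in 10.1% of strong fiber-only regions and 5.98% of the strong others, 4.11 points apart (3.23 to 5.04), or 1.67 points (0.698 to 2.64) after standardising over GC content. Over all fiber-only regions the AP-1 difference was 1.10 points (0.819 to 1.39) and reversed to -0.447 (-0.779 to -0.115) by GC content. From strong regions of fibers at both stages, strong fiber-only regions differed by 0.794 points for Sox (-2.43 to 3.68) and 0.177 for AP-1 (-2.46 to 2.41). The Hsf word was in 4.78% of strong fiber-only regions and below its flanks at 6.41%, but flanks were poorer in GC and were not matched for it. The Pax6 paired domain core TTCACGC was rare, in 0.652% of the strong fiber-only regions and 1.13% of the strong others.

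Words of Tead, CTCF and Sp1, more general regulators, were less frequent than in the other E14.5 fiber regions. The Tead word GGAATG, recognised by the partners of Yap1, was in 11.4% of fiber-only regions, close to their flanks at 10.6%, and in 13.4% of the other E14.5 fiber regions, a difference of -1.99 points (-2.36 to -1.62). The core AGGGGGC of the insulator protein CTCF was in 3.34% against 8.46%, a difference of -5.12 points (-5.38 to -4.86). The Sp1 word GGGCGG of CpG-rich promoters was in 4.03% against 20.3%. Among strong regions the Tead difference was -0.658 points, with an interval (-1.59 to 0.33) that held 0, but it was -4.18 points (-5.23 to -3.13) standardised over GC content, -3.63 (-4.65 to -2.56) outside promoters and -3.26 (-4.31 to -2.21) standardised over fragments. After standardising over GC content the differences over all regions were -4.77 for Tead, -2.63 for CTCF and -3.09 points for Sp1. Regions of fibers at both stages, without a limit on strength, had 10.2% for Tead, 3.99% for CTCF and 6.06% for Sp1. Regions of both E14.5 tissues had 14.3%, 6.28% and 6.46%. From strong regions of fibers at both stages, strong fiber-only regions differed by -0.155 points for Tead (-2.91 to 2.21) and 0.181 for CTCF (-1.63 to 1.52).

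The strongest single fiber-only region had 158 fragments (fold enrichment 47.2) and lay in an intron of Cap2, which encodes an actin-binding protein, at chr13:46559843-46560656. It held 1 Maf half-site. The next were a distal region on chromosome 5, 3975 bp from 2900005J15Rik (143 fragments, 3 half-sites), an intronic region 1636 bp from the start of the orphan receptor gene Gpr160 (130 fragments, 2 half-sites), an intron of the deubiquitinase gene Otulin and an intergenic region on chromosome 19 (119 fragments and 1 half-site each). A distal region on chromosome 13 near Mir1983 (113 fragments) and an intron of Plekhs1 (106) held none. Introns of Nol4 (105) and of Prkca and Uhrf2 (above) complete the 10, of which 8 held the half-site. Among the 20 strongest, 14 summits were in introns and 6 outside genes. None of these 20 had fewer than 84 fragments, and 2 were under 300 bp wide.

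The 10 widest fiber-only regions had 20 to 77 fragments, and 2 of them held a Maf half-site. Among all 2751 strong fiber-only regions with a peak of at least 300 bp, 46.2% held one. The widest covered 4371 bp of an Ndrg1 intron (23 fragments). A region of 2963 bp at Crygc, a gamma-crystallin gene, had 77 fragments and its summit in an exon, at chr1:65069439-65072401. Introns of Capn3, a calpain protease gene, and Galnt2 held regions of 2916 and 2622 bp, and Celf1, which encodes an RNA-binding protein, held a pair of 2477 and 2468 bp. Others lay near Ywhaz, 1810049I09Rik, Miat and Crygf.

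At least 1 fiber-only summit lay in the body or the 2 kb upstream of 9726 of 20923 protein-coding genes, 46.5%. They were unevenly spread: 971 genes (4.64%) held 50.004% of the 38577 pairs of region and gene, and 51 genes held 50 or more. The share of genes with a region in the body rose over 10 classes of gene length, from 2.05% of genes of up to 1.68 kb to 83.3% of genes over 107.8 kb. The density did not follow length: it was 0.215 per 10 kb in the shortest class, between 0.537 and 0.540 from 1.68 to 11.4 kb, and 0.324 in the longest. Because presence in the E14.5 fiber list chose the regions, the gene counts that follow are descriptions.

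The 10 genes with most fiber-only regions each held more than 100. Ank2, whose product ankyrin-B ties membrane proteins to spectrin, held 173, of 245 regions with an E14.5 fiber summit in the gene, while the E14.5 epithelium, P0.5 epithelium and P0.5 fiber lists had 96, 23 and 16 peaks there (peaks of a gene are counted by their summits). Slit3, a secreted guidance ligand, held 155, the delta-catenin gene Ctnnd2 148 and the adhesion gene Cadm1 124. The RNA-binding gene Msi2 followed with 122, the cytolinker gene Dst with 113, the cadherin gene Cdh4 and the phosphodiesterase gene Pde4d with 110 each, Asap1 with 107 and Pakap with 101. In Ank2 they ranged from 8 to 43 fragments (median 12), and 29 of the 173 (16.8%) held a Maf half-site. Among these 10 genes the share of E14.5 fiber regions called in no other list went from 50.6% in Msi2 to 81.5% in Pakap, against 48.2% over all genes.

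Per length, shorter genes led. Shisa3 (8.19 per 10 kb, 5 regions) and Rundc3a (7.65, 7 regions) came first. Tdrd7, which encodes a protein of RNA granules whose loss causes cataract, held 51 regions in 69431 bp, 7.35 per 10 kb. Its regions had 8 to 39 fragments, were up to 1816 bp wide, and 19 of them (37.3%) held a Maf half-site. The proteoglycan gene Sdc1 (6.73), Mrpl23 (6.48), the RNA-binding gene Rbm24 (6.25), Ndrg1 (6.20), Adamts18 (6.06), the splicing factor gene U2af1 (5.99) and Nap1l4 (5.91) followed. In Nap1l4, 21 of 23 E14.5 fiber regions were fiber-only, and neither P0.5 list had a peak summit in the gene, although their peaks covered 1.998% and 1.55% of it.

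Genes of the fiber cytoskeleton were rich in fiber-only regions. Of 15 listed, 14 held at least 1 in the body or upstream (93.3%, against 46.5% of all genes), and summed over the gene bodies they had 2.33 per 10 kb, against 0.390 over all genes. Together, with Ank2 the largest contributor (173), they held 433 of 621 E14.5 fiber regions (69.7%, against 48.2% over all genes), at a median gene length of 58.6 kb against 16.8 kb. Bfsp1, the beaded filament gene of filensin, held 19 regions with 11 to 71 fragments, and E14.5 fiber peaks covered 74.7% of the gene against 5.01% in the epithelium of that stage, and 2.28% and 6.03% in epithelium and fibers at P0.5. Its strongest region, in an intron 11.4 kb from the start, was 1779 bp wide. Bfsp2, the partner filament gene, held 26, with 10 to 31 fragments. The spectrin genes Sptan1 and Sptbn1 held 38 and 60, of 44 and 65 E14.5 fiber regions, and the other 3 lists had between 1 and 6 peaks in each of them. Vim was the listed gene without one.

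**Figure D5:**
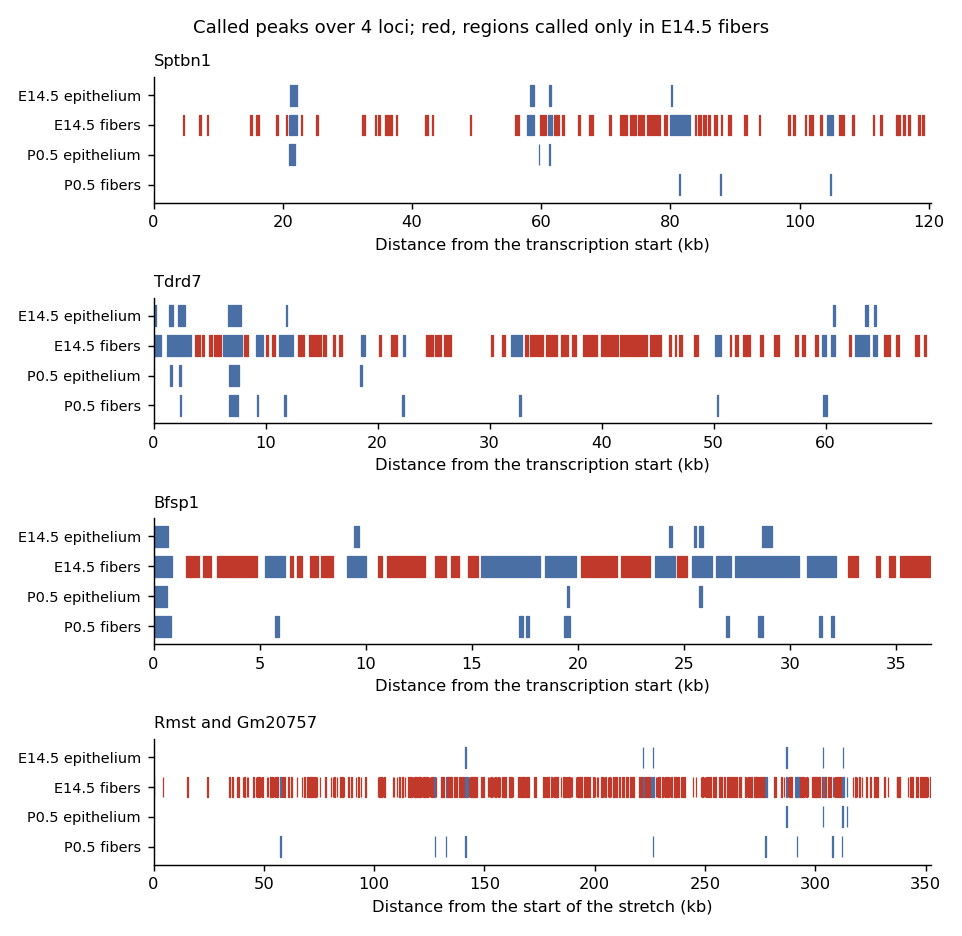
Called peaks in the 4 lists (rows) over Sptbn1, Tdrd7, Bfsp1 and the stretch with Rmst and Gm20757 (x axis, kb); red, fiber-only regions; blue, other peaks; narrow peaks are drawn at a minimum line width. Sptbn1 holds 60, Tdrd7 51, Bfsp1 19 and the stretch 259 fiber-only regions.

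Among the 11 lists, genes of RNA granules and organelle loss had the highest share of E14.5 fiber regions that were fiber-only. Of 13, 12 held a fiber-only region (92.3%, against 46.5% of all genes), at a median gene length of 34.2 kb against 16.8 kb. Of their 182 E14.5 fiber regions, 146 (80.2%, against 48.2%) were fiber-only. Tdrd7 (51) and Celf1 (34, with 8 to 57 fragments) were the largest contributors. Plaat3 held 15, Caprin2 11, Rbm24 8 and the mitophagy receptor gene Bnip3l 7. Dnase2b, whose nuclease degrades the DNA of fiber nuclei, held 4 of 5, the strongest with 43 fragments. Hsf4, the heat shock factor of the lens, held none.

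Membrane and junction genes held 308 of 484 (63.6%, against 48.2% over all genes), and 13 of 15 had at least 1 (86.7%, against 46.5%). Their median length was 23.6 kb against 16.8 kb. Cadm1 (124), the N-cadherin gene Cdh2 (84), Nrcam (39) and the ephrin gene Efna5 (32) had most. The connexin gene Gja3 held 8, Lim2 held 1, and the water channel gene Mip none.

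Of 16 crystallin genes, of which E14.5 fiber peaks covered a median of 100%, 7 (43.8%) held a fiber-only region in the body or upstream, against 46.5% of all genes. Summed over the gene bodies they had 0.606 per 10 kb, against 0.390 over all genes. In the gene bodies, 5 of 17 E14.5 fiber regions (29.4%, against 48.2% over all genes) were fiber-only: the Crygc region, 1 in Crybb2 with 10 fragments and 3 in Crygs with 17, 10 and 13 fragments. Upstream of Cryba1, Cryga, Crygb and Cryge, within 2 kb of the start, lay 1 each, with 15, 14, 10 and 15 fragments. Cryaa and Crybb1 had none.

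Genes of fiber transcription factors had a share close to that of all genes, 45 of 97 (46.4%), and 9 of 15 held at least 1. Foxo3 held 18 and Prox1 8 of 31, while Maf itself and Hsf4 held none. Of 15 epithelium genes, 11 held at least 1 (73.3%, against 46.5% of all genes) and their density was 0.700 per 10 kb, but of their E14.5 fiber regions a lower share, 36 of 122 (29.5%, against 48.2%), was fiber-only. Pax6 held 2 of 11 and the E-cadherin gene Cdh1 3 of 16. FGF and BMP signalling genes held 96 of 186 (51.6%), led by the receptor genes Fgfr2 (38) and Fgfr1 (16), the BMP receptor gene Bmpr1a (14) and the FGF target Etv5 (11). Cell cycle exit genes held 26 of 58 (44.8%), 12 of them in E2f3. Blood and vessel, retina and neuron, and mesenchyme genes had 30.4%, 36.8% and 21.1%, from 19 to 23 regions per list, against 48.2% over all genes.

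Fiber-only regions also stood in rows. When all 185247 merged regions were read along the genome, 22070 fiber-only regions (40.6%) had a region of another kind on either side, and 8342 (15.4%) stood in 1207 uninterrupted runs of 5 or more. The longest runs, with 74, 55 and 40 regions, followed one another on chromosome 10 over the long noncoding RNA genes Rmst, which has been studied in neural differentiation, and Gm20757. The first of them spanned chr10:92163978-92242409. From a run of 24 before them to a run of 23 after them, the stretch was 353 kb long and held 259 fiber-only regions, with a median of 13 fragments, 40 at most and 19 strong ones. The E14.5 fiber list had 272 peaks in it, and the E14.5 epithelium, P0.5 epithelium and P0.5 fiber lists had 6, 4 and 9. The next runs lay over Mboat1, a phospholipid acyltransferase gene (35 regions), and, with 25 each, over Herc4, the junction gene Tjp1, and Timp3 with Syn3.

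Over all fiber-only regions, those in long runs held fewer Maf half-sites. The share was 22.03% (20.3 to 23.9%) of 1956 regions in runs of 10 or more and 27.0% (26.4 to 27.6%) of those that stood alone, a difference of -4.93 points (-6.81 to -2.95), or -5.93 points (-7.84 to -4.01) after standardising over fragments at the summit. Median GC content was 48.5% and 51.5% in the same classes. Among strong regions this order was not seen, and the share was 42.3% (35.01 to 50.01%) of 163 in runs of 10 or more, 45.5% in runs of 5 to 9 and 41.6% (39.2 to 44.02%) of those alone. By location the share went from 21.1% at promoters to 27.1% in gene bodies, 27.3% at distal sites and 34.3% (32.7 to 36.0%) in intergenic regions.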

How the data were processed

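ATAC-seq peak lists were deposited for 4 groups of 2 libraries each, 8 in all. Per the labels and the study's methods, paired-end reads were trimmed with Trim Galore 0.4.1, mapped to mm10 with Bowtie2 2.3.3.1 and cleared of mitochondrial and duplicated reads with SAMtools 1.2 and Picard 2.1.1, and MACS2 2.1 called peaks at a q value of 0.05. The authors made the fold enrichment, which sets fragments at the summit against background after a constant is added to both, on the pooled libraries before they deposited it. The same holds for the −log10 p and −log10 q values. No depth per library is in the lists, and 0 columns stayed unassigned.

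Fragments at the summit were recovered from the whole steps of the fold enrichment, taken as fragments plus 1 over background plus 1. Between 96.7% and 100.0% of the deposited −log10 p values of a list lay within 1% of the Poisson value these fragments give. Multiples of background are fragments over background, with nothing added. Lists were merged with bedtools 2.31.1. Locations used 45657 curated RefSeq transcripts of GRCm38, the build of the lists, in the order promoter, gene body, distal and intergenic, by 1 bp of overlap. Bases came from the reference through samtools 1.23.1 and pysam 0.24.0. Values were computed with python 3.11.15, pandas 2.3.3, numpy 2.4.6 and scipy 1.17.1 and drawn with matplotlib 3.10.9. All 18 words were searched as letters on both strands. Shares have Wilson and differences Newcombe intervals, or normal intervals where standardised. Neighbouring regions are not independent, so the intervals are too narrow by an unknown amount. Steps were tested on simulated data.

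Named genes were those at the 10 strongest and 10 widest regions, the 10 with most regions, the 10 of at least 5 kb and 5 regions with most per 10 kb, those at the 5 longest runs, with the runs tied for the fifth, and those of 11 gene lists. Genes beside printed sequences, such as Sox1ot, came from regions among the 20 strongest or at listed genes with at least 2 kinds of word, and which of these to print was chosen after their values were seen. The regions, lists and words were chosen with earlier results of these data known. The class of 22 or more fragments, the count of all words, the runs, the classes of strength and the comparisons with regions shared by 2 groups were chosen after seeing the data. Blacklisted regions were not removed here.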

Additional observations from a re-analysis of the deposited data

How the results depend on the processing

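The number of fiber-only regions depended on the threshold. It was 35623 when a q value under 0.001 was required of the E14.5 fiber peak, 14293 with equal numbers of 58592 strongest peaks per list, 27968 with merging at 1000 bp and, in an alternative chosen after seeing the data, 35983 when every list was held to 1 common multiple of background. The share of protein-coding genes with a fiber-only region was 60.0% within 10 kb of the gene body, 37.6% at a q value under 0.001 and 22.1% with equal numbers. The Sox difference reversed, to -2.24 points after standardising over GC content and to -0.31 points (-0.728 to 0.107) outside promoters. The promoter, gene body, Maf, Tead and CTCF differences kept their direction and an interval clear of 0 under every alternative run, and so did the Maf difference of strong regions. Limiting Tead to strong regions was not among these alternatives, and its interval held 0 (-1.59 to 0.33). With equal numbers the Maf difference over all fiber-only regions was 15.3 points. The causes were not tested.

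No paired analysis was possible because the deposited lists pool the 2 libraries of each group, and for the same reason no library was left out in turn. Depth limits what absence means: a summit just below the weakest called peak of the other 3 lists stood at 3.73 to 4.43 times their background.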

Other observations

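Fiber-only regions were spread over all chromosomes, from 30.9 per Mb on chromosome 11 to 15.2 on chromosome 14 among the autosomes, and 3.47 per Mb on the X chromosome. On the X chromosome 593 of 1513 regions with an E14.5 fiber peak were fiber-only (39.2%, 36.8 to 41.7%), and on the autosomes the share went from 40.5% on chromosome 7 to 47.4% on chromosome 13.

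Of the words not described above, the E-box CAGCTG was in 19.5% of strong fiber-only regions and 8.64% of their flanks, and in 28.4% of strong regions called in fibers at both stages, 8.90 points (5.41 to 12.6) more. The Meis word TGACAG was in 24.8% against 13.3% of the flanks, and in 17.1% of strong other E14.5 fiber regions, a difference of 7.71 points (6.42 to 9.03) that was 4.14 points (2.76 to 5.51) by GC content. In strong regions of fibers at both stages it was in 31.2%, and over all fiber-only regions the difference from the other E14.5 fiber regions was 2.04 points and -0.57 points by GC content. The homeobox word TAATTA was in 2.83% of strong fiber-only regions, and the Gata word AGATAA in 7.83%. Both were below the flanks, which are poorer in GC (6.32% and 12.3%), and above the strong other E14.5 fiber regions (1.52% and 4.67%). Over all fiber-only regions the differences from the others were -0.227 and -0.329 points by GC content. The Ets word CCGGAAG was in 1.13%, against 6.07% of strong other E14.5 fiber regions. The Runx word TGTGGT was in 18.4% of strong fiber-only regions, 14.4% of their flanks and 12.4% of the strong others. That difference was 6.02 points (4.88 to 7.21). Over all fiber-only regions the Runx difference was 3.41 points, or 1.11 (0.647 to 1.57) by GC content, where the Maf difference was 0.766.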
